A study of Mus musculus with 9 samples.

Results

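The lysosomal protease genes Ctsa, Ctsb, Ctsd, Ctsl, Ctss, Ctsz and Lgmn were followed through single-cell RNA-sequencing of the mouse brain. The 7 genes were taken by name from a table of 18634 genes and 29571 cells, and all 7 are rows of it. The study compared normal sleep (NS), sleep deprivation for 12 h (SD) and sleep deprivation followed by recovery sleep (RS) in brainstem, cortex and hypothalamus. The mice were wild-type C57BL/6 (C57BL/6J in the study's methods) males aged 9 to 11 weeks, and tissue was taken at ZT12. Tissue of 3 mice was pooled for each of the 9 libraries, so each region and sleep group was 1 library. The length of RS is given as 12 h in one place of the labels and 24 h in another. All libraries shared papain dissociation and removal of myelin with beads.

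Lysosomal proteases degrade proteins that reach the lysosome by endocytosis, phagocytosis and autophagy. They are made as inactive precursors, are sorted to the lysosome mostly by mannose 6-phosphate tags, and are activated in its acidic lumen. In brain, microglia and macrophages carry a large lysosomal compartment, and cathepsin S in particular is known for work on MHC class II invariant chain in antigen-presenting cells. The 7 genes fall into 4 catalytic kinds. Ctsb, Ctsl, Ctss and Ctsz encode papain-like cysteine proteases. Ctsd encodes an aspartic protease, Lgmn encodes legumain, which cuts after asparagine and helps to process other cathepsins, and Ctsa encodes a serine carboxypeptidase that also protects beta-galactosidase and neuraminidase.

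The annotation places the 7 protein-coding genes on 6 chromosomes of GRCm38. Ctsa lies at chr2:164832873-164841032 on the plus strand, and Ctsz at chr2:174427493-174439039 on the minus strand. Ctsb lies at chr14:63122462-63145923 on the plus strand, Ctsd at chr7:142375911-142388038 on the minus strand, and Ctsl at chr13:64359337-64370890 on the minus strand. Ctss lies at chr3:95526786-95556403 on the plus strand, and Lgmn at chr12:102394084-102439813 on the minus strand. RefSeq promoter windows of GRCm38.p6, each 250 bases before to 50 after a start site, were given for 6 of the 7 members. All 7 members were highest in microglia when all genes were counted in the total, as given below. With some genes left out of the total, Ctsb and Ctsl were not, on values without an interval. Because of the first result, the windows were searched on both strands for the E-box CACGTG and its extended form TCACGTGA. The extended form holds the E-box and is the core of the element that TFEB and TFE3 bind at lysosomal genes. The windows were also searched for GAGGAAGT, a form of the site bound by PU.1, a myeloid transcription factor. The E-box was present in windows of Ctsa, Ctsd, Ctsl and Lgmn, and in 7.15% of all 32851 windows of the table. The extended form was present in Ctsa and Ctsd, and in 0.974% of all windows. GAGGAAGT was present in Ctss alone of the members, where it runs from position -2 into the transcript, and in 3.20% of all windows. The window of Ctsz held none of these letters. The 60-base stretches with the match closest before the start site are shown 5′ to 3′ on the strand of the gene, with the match in capitals, so that the letters found in each member can be seen.
Ctsd, chr7:142387893-142387952, minus strand: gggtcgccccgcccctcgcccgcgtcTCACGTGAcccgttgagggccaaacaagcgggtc
Ctsa, chr2:164833721-164833780, plus strand: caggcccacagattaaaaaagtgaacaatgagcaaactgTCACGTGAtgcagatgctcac
Lgmn, chr12:102439109-102439168, minus strand: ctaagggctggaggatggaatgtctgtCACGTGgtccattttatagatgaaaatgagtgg
Ctsl, chr13:64370711-64370770, minus strand: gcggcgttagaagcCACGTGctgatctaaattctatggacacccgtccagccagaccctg
Ctss, chr3:95526734-95526793, plus strand: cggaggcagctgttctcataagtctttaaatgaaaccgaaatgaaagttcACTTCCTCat
The start sites used for Ctsd, Ctsl, Ctsa and Lgmn in these lines lie 211, 370, 900 and 721 bases inside the annotated gene. The windows of the other start site of Ctsa and of Lgmn held no match. A match is a description of the sequence and was not tested for binding.

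Depth ranged from 1522766 to 5488950 UMIs (unique molecules counted) per library, with a median of 3671604, and from 2575 to 3916 cells per library. The columns of the table name 9 libraries by code and not by sample. Library 7 held all 1999 barcodes of the study's list of brainstem NS cells, against 5 to 13 in each other library, so it is the brainstem NS library. The other 8 libraries could not be tied to a region or sleep group here, are numbered in the order of the table, and enter no comparison between sleep groups. Gh, the growth hormone gene of the pituitary, took 25.3%, 27.9% and 32.1% of the UMIs in libraries 4, 5 and 6, and at most 0.00755% in the others. Of 29015 distinct barcodes, 542 occurred in 2 libraries and 7 in 3. With 1 library per group there was no test: levels are CPM, the UMIs of a gene scaled to 1000000 UMIs in all, with exact Poisson 95% intervals, shares of cells have exact Clopper-Pearson 95% intervals, and both cover counting error only.

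Microglia of the brainstem NS library had the highest CPM of all 7 members among the 11 cell types of the list. With mitochondrial, hemoglobin and pituitary hormone genes left out of the total, glutamatergic neurons were higher in CPM for Ctsb and Ctsl, without an interval, as given below. Ctss was at 9689 CPM (9420 to 9963.7) in the 549 microglia, Lgmn at 3988 CPM (3816 to 4166) and Ctsd at 3659 CPM (3494 to 3829). Ctsb was at 1772 CPM (1658 to 1892), Ctsz at 1741 CPM (1628 to 1859), Ctsl at 593 CPM (528 to 664) and Ctsa at 367 CPM (316 to 423). Together the 7 genes stood at 21809 CPM in microglia. The next total was 5835 CPM (5199 to 6526) in glutamatergic neurons, and the lowest was 669 CPM (580.5 to 767) in arterial smooth muscle cells (VSMCA). The markers matched the label of the microglia: all 10, such as P2ry12 at 2478 CPM and C1qb at 9078 CPM, were highest in them. All 8 macrophage markers were highest in the listed macrophages, with Lyz2 at 10260.1 CPM and Pf4 at 1048 CPM. The study named its clusters by high levels of known markers, so these checks are not independent of the labels. Neuron markers were not checked in the listed neurons.

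**Figure D1:**
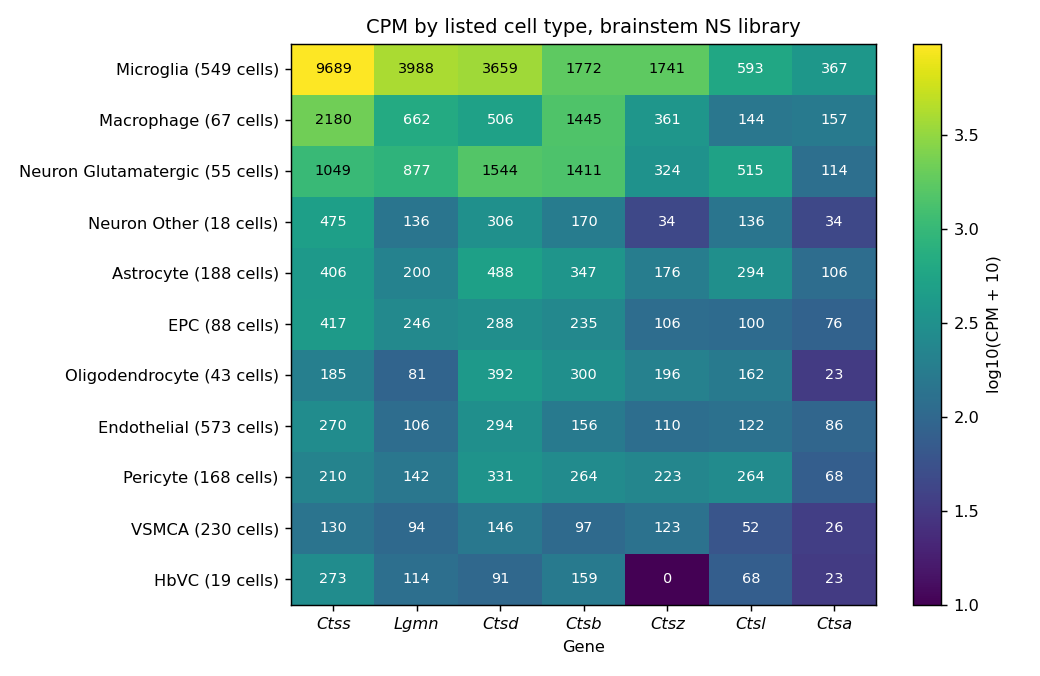
CPM of the 7 members (columns) in the 11 listed cell types (rows, with the number of cells) of the brainstem NS library; the colour gives log10(CPM + 10) and the printed number the CPM. On this total of all UMIs, microglia hold the highest value in each column, from 9689 for Ctss to 367 for Ctsa.

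The excess in microglia was largest for Ctss. Against all listed cells that were not microglia, Ctss was 25.4-fold higher (23.4 to 27.6) and Lgmn 22.2-fold higher (19.7 to 25.1). Ctsz was 11.9-fold (10.3 to 13.7) and Ctsd 10.8-fold higher (9.87 to 11.9). The smallest ratios were those of Ctsb at 6.16 (5.52 to 6.89), Ctsa at 4.99 (3.96 to 6.30) and Ctsl at 3.96 (3.34 to 4.69). Intervals of Ctss and Lgmn lay above those of the other 5 members, while those of Ctss and Lgmn overlapped each other. All 7 members were at least 2-fold higher on CPM + 10, as were 9.71% of the 9787 genes with at least 10 CPM in either side. The median log2 ratio was 3.40 over the members and -0.29 over all genes tested. Without the cells of other types that held 10 or more UMIs of microglia markers, 28 of them macrophages, the log2 ratio of Ctss was 5.32 in place of 4.63. That of Ctsl was 1.91 in place of 1.92. That choice was made with the values known. It removed cells from the other side only, by markers that include C1qb, the gene closest to Ctss in pattern. A higher ratio of Ctss follows from such a choice and is no further support.

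Nearly every microglial cell held Ctss. It was detected in 545 of 549 microglia (99.3%), and in 96.9% when each cell was thinned to 500 UMIs. In endothelial cells, of median depth 910 UMIs against 796 in microglia, the share was 21.8%, and 10.7% after thinning. The shares in microglia were 93.8% for Lgmn (81.0% thinned), 90.7% for Ctsd (79.7%), 71.8% for Ctsz (55.2%), 67.9% for Ctsb (52.4%), 36.6% for Ctsl (22.7%) and 25.1% for Ctsa (15.9%). Each exceeded the thinned endothelial share of the same gene, which was highest for Ctsd at 15.1% and lowest for Ctsa at 4.21%. A thinned microglial cell held a median of 4 of the 7 members, and 489 of 542 (90.2%) held 3 or more. All 542 thinned microglia held at least 1 member, a share whose interval starts at 99.32%. A count of 3 of 542 with no member would be 0.554%, which is tighter than that interval. Only 1.05% of endothelial cells and 6.49% of astrocytes held 3 or more, against 19.7% of macrophages and 21.8% of glutamatergic neurons.

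In macrophages Ctsb was closest to its microglial level and the other members were further below theirs. Ctsb was at 1445 CPM (1198 to 1728) in the 67 macrophages and 0.815 times (0.668 to 0.988) its microglial level. The other 6 members were at least 2-fold lower than in microglia, and none was 2-fold higher. Ctsd was at 506 CPM, a ratio of 0.138 (0.0993 to 0.188). Lgmn was at a ratio of 0.166, Ctsz at 0.207, Ctss at 0.225, Ctsl at 0.243 and Ctsa at 0.427 (0.223 to 0.748). Of the 9045 genes tested, 22.6% were called lower in macrophages and 14.0% higher. Ctss still led in macrophages at 2179.7 CPM (1874 to 2521), with Ctsb second. Among the other cathepsins, Ctsc, an exopeptidase that activates serine proteases of immune cells, was at 735 CPM in macrophages and 526 in microglia. Of the 67 macrophages, 28 held 10 or more UMIs of microglia markers and carried 126 of the 181 Ctss UMIs. In the other 39 cells, a choice made with the values known, Ctss was at 1340.2 CPM (1009.6 to 1744), Ctsb at 1072 CPM (779 to 1439), Lgmn at 244 CPM (117 to 448) and the 7 members together at 3606 CPM. P2ry12 was at 60.2 CPM in all the macrophages, and the 10 microglia markers summed to 6973 CPM there against 29993 in microglia, mostly C1qa and C1qb, which macrophages are known to express.

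Outside phagocytes, the levels of Ctss went with those of the microglia markers. For each listed type, the UMIs of a member were divided by the summed UMIs of the 10 microglia markers, a measure chosen after the levels had been seen. Microglia held 32.3 Ctss UMIs for each 100 marker UMIs. Endothelial cells held 30.4, EPC (ependymocytes) 30.9, pericytes 32.6, VSMCA 27.03, astrocytes 38.8 and oligodendrocytes 28.6. Relative to microglia, the interval of this ratio held 1 in 8 of 9 types that are not phagocytes. The exception was the 18 other neurons, with 14 Ctss UMIs and a ratio of 2.28 (1.246 to 3.83). Lgmn behaved likewise, with the interval holding 1 in 7 of 9 types, and lay above 1 in glutamatergic neurons at 2.22 (1.62 to 2.97) and in pericytes at 1.66 (1.03 to 2.55). The pericyte ratios depend on the marker Olfml3, at 175.8 of the 642.2 CPM of all 10 markers there. In microglia it was at 743 of 29993 CPM. Without Olfml3 the ratios of pericytes to microglia, that of Ctss included, would be higher, and they were not computed. In most other types, then, Ctss and Lgmn did not differ beyond counting error from the proportion that microglia hold beside their own markers. Whether these UMIs were free RNA, mixed droplets or transcripts of the cells was not tested.

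The other 5 members exceeded that proportion in most types. The measure was computed for the members only, so the share of all genes above it was not counted. Any gene less confined to microglia than the markers can lie above it, so the counts do not set these members apart from other genes. Ctsb was above it in 9 of 9 types, from 2.94-fold in EPC to 8.03-fold in glutamatergic neurons. Ctsl was above it in 8 of 9, with the highest ratio in pericytes at 20.8 (14.5 to 29.0), followed by astrocytes at 14.2 (10.3 to 19.2). Ctsd was above it in 8 of 9 types, and Ctsa and Ctsz in 6 of 9. The one type in which Ctsd and Ctsl both missed was HbVC, the hemoglobin-expressing vascular cells, with 19 cells and 4 and 3 UMIs of these genes. HbVC also held 0 Ctsz UMIs, a count for which 3 UMIs would be 68.2 CPM and the Poisson interval ends at 83.9 CPM.

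**Figure D2:**
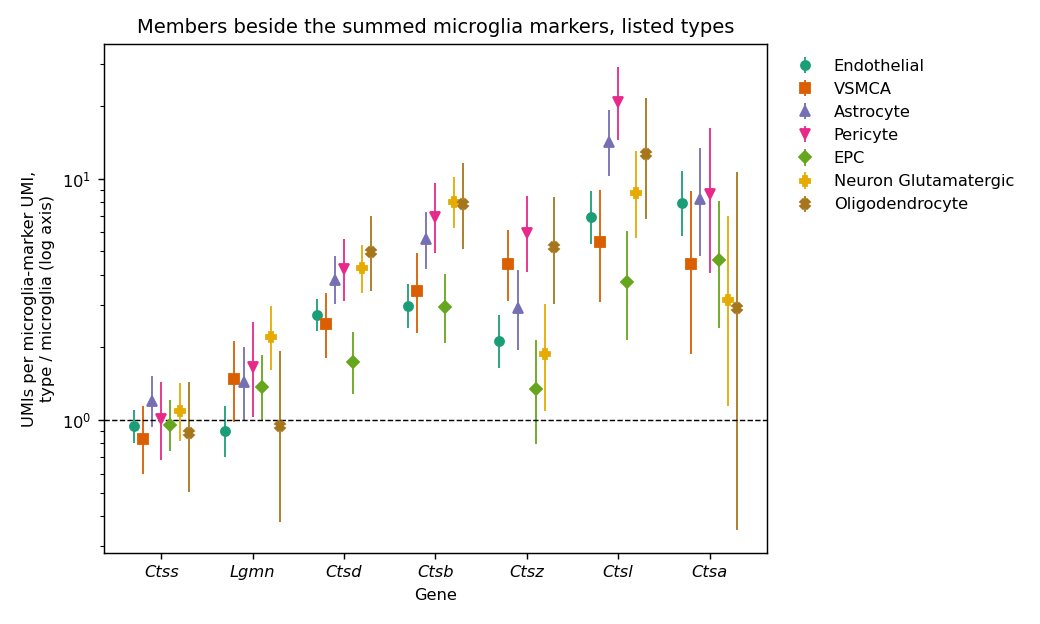
UMIs of each member per UMI of the 10 microglia markers in 7 listed types, divided by the same value in microglia (log axis, bars are exact 95% intervals for counting error, dashed line at 1). Ctss lies around 1 in all 7 types shown, Lgmn in most, whereas Ctsb and Ctsl lie above 1 in all of them, up to 20.8 for Ctsl in pericytes.

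Glutamatergic neurons took rank 2 or 3 for each member, on 55 cells. Ctsd was at 1544 CPM (1226 to 1920) and Ctsb at 1411 CPM (1108 to 1771), which overlapped the Ctsb intervals of microglia and macrophages. Ctsl was at 515 CPM (339 to 749), overlapping that of microglia, and Ctss at 1049 CPM. The 10 microglia markers summed to 2974 CPM in these neurons, against 480.4 to 1350 in the other types that are not phagocytes, with none of the 10 at 0. Of the 55 cells, 3 held 10 or more microglia-marker UMIs, and those 3 held 42 of the 55 Ctss UMIs. Without them Ctss was at 274 CPM (146 to 469), whereas Ctsb stayed at 1415 CPM, Ctsl at 528 and Ctsd at 1394. Mitochondrial transcripts took 26.7% of the UMIs of these neurons and 3.68% of those of microglia. When mitochondrial, hemoglobin and pituitary hormone genes were left out of the total, the neurons moved above microglia for Ctsb (1976 against 1845 CPM) and Ctsl (721 against 618 CPM). The rank of microglia by CPM for these 2 members therefore depended on the total used, and that of the other 5 did not. With cells of at least 1000 UMIs only, the neurons were also above microglia for Ctsl (742.5 against 599.7 CPM). The neurons held 74 Ctsb and 27 Ctsl UMIs. No interval was computed for these alternatives, so the order was not tested against counting error. With clusters of the library in place of the listed types, microglia-like cells were highest for both genes, at 1759 and 573 CPM. Macrophage-like cells were then second for Ctsb at 1354.5 CPM, and fibroblast or leptomeningeal-like cells for Ctsl at 392 CPM.

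Endothelial cells and astrocytes were the largest groups of listed cells that are not phagocytes or mural cells. Ctsb was 0.449 times (0.322 to 0.630) and Ctsl 0.414 times (0.287 to 0.602) as high in endothelial cells as in astrocytes, and both were called lower. Lgmn at a ratio of 0.532, Ctsd at 0.603, Ctsz at 0.620, Ctss at 0.665 and Ctsa at 0.815 missed the 2-fold rule, and none of the 7 was called higher. Of the 10111 genes tested, 20.7% were lower and 21.7% higher in endothelial cells, so 2 of 7 members lower was close to the share of all genes. With cells of at least 1000 UMIs only, the log2 ratio of Ctsl went from -1.21 to -0.54 and missed the rule, and that of Lgmn passed it at -1.05.

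The makeup of the 7 members differed between cell types. Ctss had the largest share in microglia, macrophages, EPC, HbVC and other neurons, and Ctsd in the remaining 6 listed types. In EPC, 5 of 88 cells held 10 or more UMIs of microglia markers and 37 of the 71 Ctss UMIs, and in HbVC 1 of 19 cells held 9 of 12. Without those cells EPC held 34 Ctss, 34 Ctsb and 33 Ctsd UMIs, and HbVC 3 Ctss UMIs, so the lead of Ctss in both types rested on them. These libraries count 1 tag near the 3′ end of each molecule, so transcript length does not enter, while capture may still differ between genes. In microglia, Ctss made up 44.4% (43.5 to 45.4) of the UMIs of the 7 members, Lgmn 18.3%, Ctsd 16.8%, Ctsb 8.13%, Ctsz 7.98%, Ctsl 2.72% and Ctsa 1.68%. In macrophages Ctss made up a similar 40.0% (35.4 to 44.6), but Ctsb made up 26.5% (22.5 to 30.8) and Ctsd only 9.27%. In astrocytes Ctsd was at 24.2% (19.8 to 29.1) and Ctss at 20.1% (16.0 to 24.8), which overlapped, and Ctsl made up 14.6% (11.0 to 18.8). There, 2 of 188 astrocytes with 10 or more UMIs of microglia markers held 24 of the 69 Ctss UMIs, and without them Ctss, at 45 UMIs, was below Ctsb at 55 and Ctsl at 48. In pericytes Ctsd made up 22.1% (16.8 to 28.1) and Ctsl 17.6% (12.8 to 23.2), which also overlapped.

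The rest of the lysosomal gene set was shifted toward microglia less than the members. Of 85 genes tested in 7 lists, 32 were at least 2-fold higher in microglia than in the other listed cells and 3 were lower, beside 9.71% higher and 23.6% lower among all 9787 genes tested. Soluble lysosomal proteins other than cathepsins were called higher for 21 of 36 tested, with a median log2 ratio of 1.19. Npc2, which carries cholesterol out of the lysosome, was at 873 CPM in microglia and 843 in macrophages. Psap, the precursor of the saposins, was at 1843 CPM in microglia and higher in glutamatergic neurons at 3871 CPM. The 2 soluble genes called lower were Gaa and Smpd1, named after their values were seen, as are those named below as called. Other cathepsins were called higher for 3 of 4 tested: Ctsh at 857.5 CPM in microglia, Ctsc and Ctsf.

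Cystatin C showed the highest level of any gene in these lists. Cst3, which encodes this secreted inhibitor of cysteine cathepsins, was at 70419 CPM in microglia, 18008 in astrocytes, 10144 in glutamatergic neurons and 9995 in macrophages, and its ratio of 12.0 (11.7 to 12.2) between microglia and the other listed cells exceeded those of Ctsb and Ctsl. Cstb, the cytosolic inhibitor, was not called, at 183 CPM in microglia and 246 in the others. Cst7, an intracellular inhibitor of immune cells, was called higher at 27.6 CPM against 1.15, a ratio of 24.0 (5.52 to 218) on 14 and 2 UMIs.

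Counts for the membrane, proton pump and sorting lists, at 3 of 17, 1 of 14 and 1 of 8 called higher, lay nearer to the 9.71% of all genes. Among membrane proteins 3 of 17 were called higher, Laptm5 at 905 CPM in microglia, Cd68 and Lamp2, and the median log2 ratio was 0.53. Lamp1 was at 743 CPM in microglia and 725 in glutamatergic neurons, and the tetraspanin Cd63 was highest in pericytes at 1419.6 CPM and astrocytes at 1294 CPM. Subunits of the V-ATPase, the proton pump, had 1 of 14 called higher, Atp6v0b, 1 lower, Atp6v1a, and a median log2 ratio of 0.27. Atp6v1g1 was at 562 CPM in microglia and 520 in endothelial cells. Sorting factors had 1 of 8 called higher, Nagpa, which uncovers the mannose 6-phosphate tag, with M6pr at 112 CPM in microglia and 210 in glutamatergic neurons. Of 3 lysosomal transcription factors tested, Tfe3 was called higher at 59.1 CPM, and Tfeb was at 17.7 CPM against 18.9 CPM in the other cells.

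Genes with the pattern most like each member were ranked by Pearson r of log2(CPM + 10) over the 8 listed types of at least 50 cells, among 7038 genes. These 8 points come from 1 library and share its free RNA, and the values are descriptions. The closest to Ctss was C1qb at 0.992, then Siglech at 0.983 and Bin2. For Lgmn it was Ctss itself at 0.972, then Trem2 and Clec5a. Trem2 was also first for Ctsz at 0.954. Ctsd was closest to Crybb1 at 0.975, Ctsb to Erp29, a protein of the endoplasmic reticulum, at 0.981, Ctsa to Vsir at 0.973, and Ctsl to Rpl7l1 at 0.955, with Lamp1 second. In 14 cell classes of the other 8 libraries, the value for Ctss and C1qb was 0.995 and that for Ctsl and Rpl7l1 0.659. Among the members, the lowest value was that of Ctsl and Ctss, at 0.649 in the 8 types and 0.200 in the 14 classes.

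In whole libraries, the members varied by very different factors. Ctss was at 717, 307, 151, 154, 206, 21.5, 2217, 1471 and 951 CPM in libraries 1 to 9, so the brainstem NS library 7 was highest and library 6 lowest, 103-fold apart. Lgmn was at 341.5, 177, 119, 84.0, 99.9, 39.2, 942, 553 and 400.1 CPM, a 24.0-fold range with the same ends. Ctsd was at 701, 503, 327, 189, 254, 102, 978, 746 and 495 CPM, a 9.62-fold range. The 3 genes thus separated libraries 7 to 9 and 1 from libraries 3 to 6. Ctsb was at 503, 416, 382, 222, 255, 152, 562.5, 386 and 297 CPM, a 3.71-fold range. Ctsz was at 186, 112, 76.5, 93.6, 111, 76.7, 443, 291 and 209.8 CPM, and Ctsa at 110.3, 85.8, 77.6, 37.6, 58.0, 22.0, 126, 122 and 73.2 CPM. Ctsl had the narrowest range over the 9 libraries, at 189, 167.5, 118, 157, 194, 112, 225, 193 and 158 CPM, a 2.01-fold range. Library 7 was highest for all 7 members, and library 6 lowest for 6 of them, with library 3 lowest for Ctsz. With cells of at least 1000 UMIs the range of Ctsz became 15.6-fold, with library 2 lowest. Leaving out library 6 alone lowered the range of Ctss to 14.7-fold and that of Lgmn to 11.2-fold. Ctsd then ranged 5.17-fold, Ctsa 3.36-fold and Ctsb 2.53-fold. Leaving out libraries 4 to 6 gave 14.7-fold for Ctss and 7.89-fold for Lgmn, with library 3 then lowest for both. The range of Ctsd became 2.99-fold, those of Ctsb and Ctsl 1.90-fold each and that of Ctsa 1.72-fold, with library 9 lowest for Ctsa and Ctsb, so Ctsl no longer had the narrowest range. Ctsz stayed at 5.79-fold. In such sums, fewer cells of a type and less RNA per cell cannot be told apart.

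**Figure D3:**
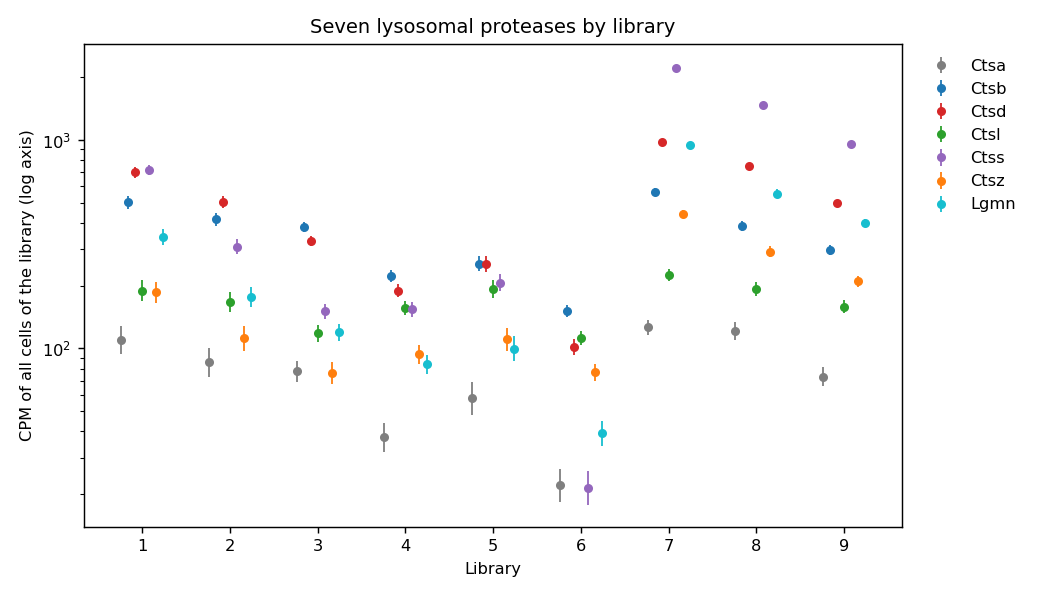
CPM of the 7 members over all cells of each library (x axis, library 1 to 9; y axis, log scale; bars, exact Poisson 95% intervals). Ctss spans 21.5 to 2217 CPM, while Ctsl stays between 112 and 225 CPM.

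Cells were clustered over all libraries without the members and the lysosomal lists, and clusters were named from fixed markers. Microglia-like cells made up 0.613% of the cells in library 6 and 26.7% in library 7. They held 38.1% to 91.2% of a library's Ctss UMIs, with a median of 80.3%. The median share was 55.6% for Lgmn, 51.1% for Ctsd, 44.9% for Ctsz, 25.9% for Ctsa, 18.5% for Ctsl and 14.9% for Ctsb. In library 7 they held 63.1% of the Ctsb UMIs, and in library 6 1.80%. Fewer than 50 microglia-like cells were found in library 6, with 24, so it is left out of the levels that follow.

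Within microglia-like cells the range across the 8 libraries was narrower than in whole libraries, by far for Ctss and little for Ctsl. Ctsl ranged 1.69-fold in these cells against 1.905-fold in whole libraries. Without libraries 4 to 6, Ctsa ranged more widely in these cells, at 1.85-fold against 1.72-fold. Ctsb was then at 1.86-fold against 1.90-fold. Ctss was at 5664, 4868, 3486, 4536, 5455, 9316, 8366.5 and 5873 CPM in libraries 1, 2, 3, 4, 5, 7, 8 and 9, a 2.67-fold range against 14.7-fold in the same 8 whole libraries. It was highest in libraries 7 and 8, whose intervals lay above all others. Ctsd took another order, at 4047, 4809.9, 3595, 1992, 3355, 3536, 3317.5 and 2263 CPM, with library 2 highest and library 4 lowest. Lgmn ranged from 1464 CPM in library 4 to 3884 in library 7, Ctsb from 897.5 to 1666, Ctsz from 824 to 1599.8, Ctsl from 343 to 581 and Ctsa from 240.0 to 490.5 CPM. Ctss led in 7 of 8 libraries. In library 3 Ctsd was at 3595 CPM (3274 to 3940) beside Ctss at 3486 CPM (3169 to 3825), and these overlapped, as they did in library 2. The 7 members summed to 10572 CPM in library 4, the lowest, and 20894 in library 7, the highest. With mitochondrial, hemoglobin and pituitary hormone genes left out of the total, the lowest was library 3 at 12467 CPM.

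**Figure D4:**
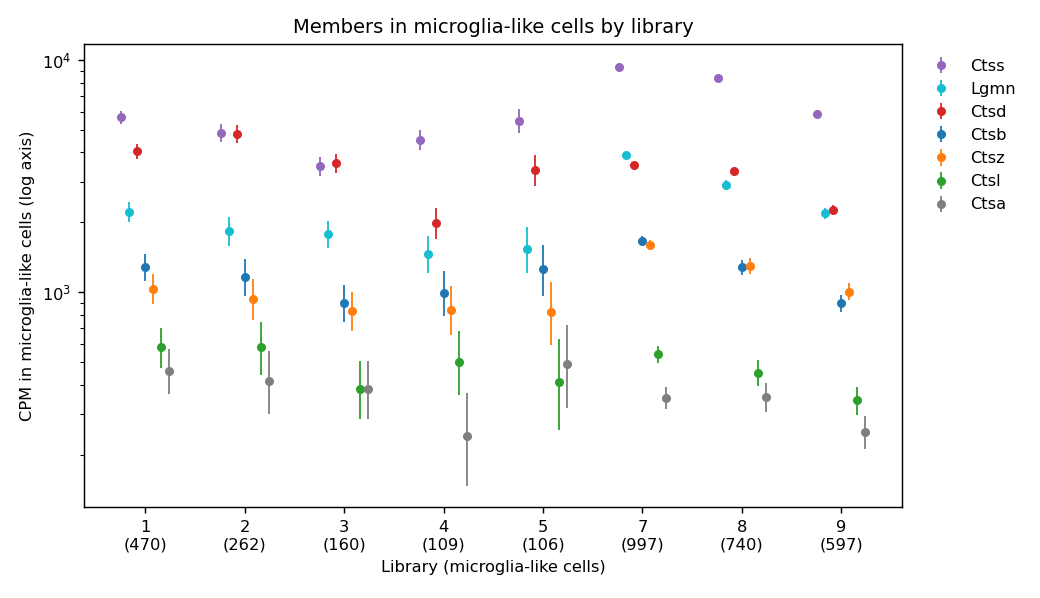
CPM of the 7 members in microglia-like cells of the 8 libraries with at least 50 of them (number of cells in brackets; y axis, log scale; bars, exact Poisson 95% intervals). Ctss ranges from 3486 to 9316 CPM, and Ctsd reaches the level of Ctss in libraries 2 and 3.

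The microglia-like class was not made of the same clusters in each library. Cluster 6 held 855 of 997 microglia-like cells in library 7 and most of those in library 8, at 411 of 740, whereas cluster 12 held 384 of 470 in library 1. Over all libraries Ctss was at 9142 CPM in cluster 6 and 6360 in cluster 12, and Ctsd at 3666 and 3339 CPM. Cluster 25, with 232 cells, held Ctss at 3391 CPM and Ctsd at 2004 CPM, and made up 25.5% of the class in library 5, 16.9% in library 3 and 0.602% in library 7. Clusters 26 and 27, of 170 and 114 cells, also carried endothelial markers at 15726 CPM and smooth muscle markers at 9811 CPM, and their microglia markers summed to 10806 and 11984 CPM against 25259 in the other microglia-like cells. With both clusters left out, as chosen once their markers were known, Ctss ranged from 3796 to 9686 CPM, 2.55-fold, Ctss and Ctsd were equal at 3796 CPM in library 3, and Ctsd was at 5054.5 beside 5033.6 CPM for Ctss in library 2, so that Ctss led in 6 of 8 libraries. How far the makeup in clusters and median depth, which ran from 312.5 UMIs in library 1 to 908 in library 9, set these levels was not tested.

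Against cells that were neither microglia-like nor macrophage-like, each member was higher in microglia-like cells in 8 of 8 libraries, with intervals above 1. The share of all genes higher by this rule was not counted, so whether the members stand out from it was not tested. The ratio of Ctss ran from 31.3 to 212, that of Lgmn from 17.5 to 32.2, that of Ctsd from 9.52 to 20.3, and that of Ctsz from 10.1 to 17.3. Ctsa ran from 4.70 to 10.7, Ctsb from 2.52 to 7.90 and Ctsl from 2.18 to 4.23. Ctsl had the lowest ratio in libraries 4, 5, 7, 8 and 9, and Ctsb in libraries 1, 2 and 3. In the cells of neither class, Ctss was between 7.35 CPM in library 6 and 209.7 in library 7, and the microglia markers summed to 39.9 and 643 CPM in the same cells, with 687.5 in library 9. Ctsl in these cells ranged only from 109 to 189 CPM, highest in library 5.

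Macrophage-like cells, counted in 6 libraries, held Ctsb near or above the level of microglia-like cells and 4 members below it. Ctsb was at 2224, 1566, 1483, 1429, 1198 and 1021 CPM in libraries 1, 4, 5, 7, 8 and 9. Its ratio to microglia-like cells of the same library ran from 0.857 to 1.73, above 1 beyond the interval in libraries 1 and 4 and below 1 in library 7. Ctsd, Ctsl, Ctss and Lgmn were below 1 beyond the interval in 6 of 6 libraries. The share of all genes below 1 by this rule was not counted. Among listed cells, 22.6% of genes were called lower in macrophages by the 2-fold rule. Ctsa, at ratios of 0.288 to 0.974, and Ctsz, at 0.307 to 1.16, were below 1 beyond the interval in 3 of 6 libraries each. Library 7, in whose listed macrophages both were called lower, was among these for both. Of the 4 members low in all 6 libraries, Ctsl had the narrowest spread of ratios, at 0.232 to 0.319. It rested on as few as 3 UMIs, in library 5, with an interval of 0.0491 to 0.861. That spread was therefore not resolved beyond counting error. Ctss was at 1204.5 CPM in library 1, where Ctsb exceeded it, and at 3566 in library 5. The ratio of Ctss was 0.778 and 0.654 in libraries 4 and 5, and 0.213 to 0.331 in the other 4.

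In neuron-like cells Ctsb was the leading member in 9 of 9 libraries, at 459, 436, 407, 373, 486 and 374.4 CPM in libraries 1 to 6, and at 884.5, 595 and 609.5 CPM in libraries 7, 8 and 9. Ctsb also led in tanycyte or pituicyte-like cells in 3 of 3 libraries, while in the listed glutamatergic neurons it made up 24.2% beside Ctsd at 26.5%, with overlapping intervals. In neuron-like cells Ctsb made up 30.7% to 53.4% of the UMIs of the 7 members, whereas its share in microglia-like cells was 6.999% to 9.43%. In neuron-like cells of library 7 Ctsb was at 30.7% beside Ctsd at 27.3%, with overlapping intervals, so its lead there was not resolved. Ctsz made up 1.49% to 4.91% in neuron-like cells and 5.86% to 12.96% in astrocyte-like cells. Ctss in neuron-like cells was at most 46.3 CPM in libraries 1 to 6 and 146.5 to 302.5 CPM in libraries 7 to 9, the libraries with the most microglia markers in cells of neither phagocyte class. In astrocyte-like cells Ctsd led in 7 of 8 libraries at 293 to 500.4 CPM, and Ctsl was at 213 to 337 CPM in all 8. Fibroblast or leptomeningeal-like cells, found in 7 libraries, held Ctsd in front in 5, at 292 to 877 CPM over all 7, and Ctsl at 267 to 436.5 CPM, a level near that in microglia-like cells (343 to 581 CPM). In pituitary endocrine-like cells, found in libraries 4 to 6, Ctsb at 156.5 to 187 CPM and Ctsl at 146.5 to 201 CPM led, with Ctss at 6.52 to 25.3 CPM.

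**Figure D5:**
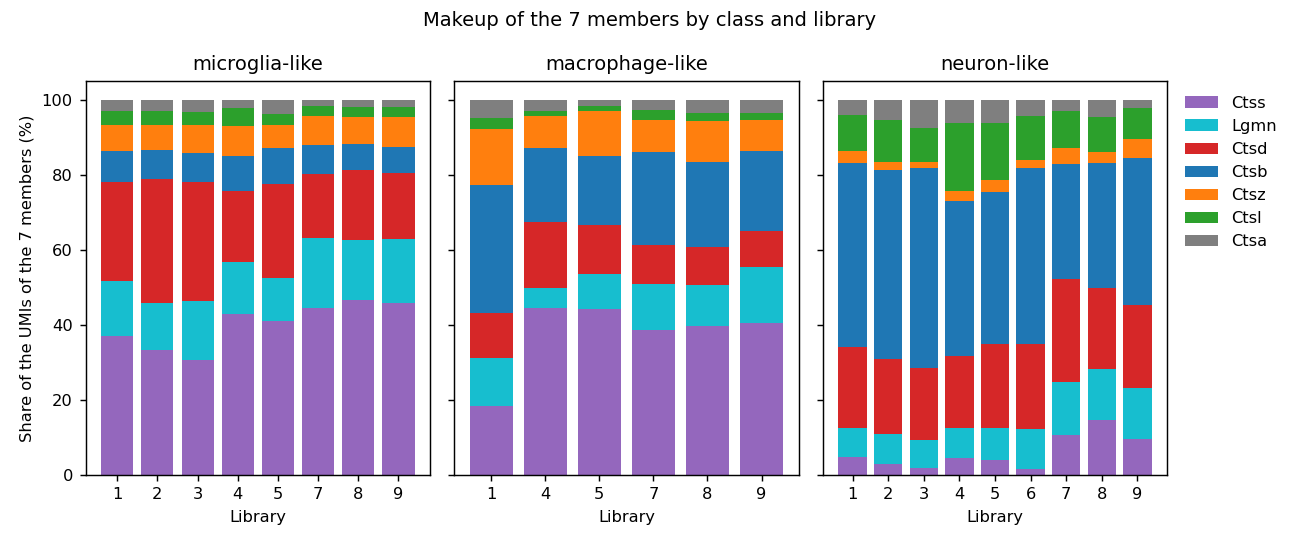
Share of each member among the UMIs of all 7 in microglia-like, macrophage-like and neuron-like cells, for each library with at least 50 such cells (stacked bars, percent). Ctss fills 30.7% to 46.5% of the microglia-like bars, and Ctsb 30.7% to 53.4% of the neuron-like bars.

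In the brainstem NS library, microglia-like cells fell into a main cluster and one led by immediate early and chemokine genes. Fos was 39.9-fold and Ccl4 29.7-fold higher in that second cluster, and P2ry12 was 0.714 times as high. The members differed far less between the pair. Ctsb was 1.34 times (1.21 to 1.48) and Ctsz 1.22 times (1.10 to 1.36) as high in the second cluster, at 2105 against 1572 CPM and 1917 against 1570 CPM. Ctss at 1.07 (1.02 to 1.11) and Ctsd at 1.08 (1.00 to 1.16) differed by less, and the intervals of Ctsl, Lgmn and Ctsa held 1. The clusters were made from these same cells, without the members among the genes used, so these ratios describe the clusters and are no test.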

How the data were processed

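Per the labels and the study's methods, reads of droplet (10x Genomics, 3′) libraries were mapped to GRCm38 with Cell Ranger (2.2.0 in the submitters' processing notes), and the authors deposited 1 table of filtered UMI counts for all 9 libraries. UMI counts are whole numbers that were not normalized. From them, counts were summed over the cells of a library, type or class and divided by the summed UMIs (CPM), with no further filter on cells. The members and gene lists were chosen with earlier results of these data known. For library 7, the study's own annotation of 1999 cells gave the cell types. Classes came from clustering (2000 variable genes without members and lysosomal lists, 13 principal components, 20 neighbours, Leiden resolution 1; scikit-learn 1.9.0, python-igraph 0.11.9) in 29 clusters, and a class was called X-like from at least 3 fixed markers. Doublets were not removed. Scrublet, in scanpy 1.11.5, marked 1.18% of library 7 and its scores gave an alternative. Called means a 2-fold difference in CPM + 10 among genes of at least 10 CPM in either side. Intervals are at 95%. Those of ratios were tested on simulated Poisson counts, which is the model they assume, with no variation between cells, mice or libraries. The intervals of CPM and of shares were not tested. Named genes were the 7 members, up to 3 genes per list with the highest CPM in microglia, the 3 nearest genes of each member, and markers. Other list genes are named where few were called, chosen after their values were seen. A gene that this rule names is not reported here. No p-value was computed, since each group is 1 library.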

Additional observations from a re-analysis of the deposited data

How the results depend on the processing

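The number of members called higher in microglia (7), lower in macrophages than in microglia (6) and lower in endothelial cells than in astrocytes (2) was the same with a pseudocount of 1 CPM and with cells of at least 1000 UMIs. It was also the same with genes of at least 50 CPM. That alternative could not change it, because each member exceeded 50 CPM on a side of each comparison. Among the single members, calls differed only for Ctsl and Lgmn in endothelial cells, as given above. The number of listed lysosomal genes called higher was 32, and 30 to 40 under the alternatives. The summed CPM of the members in the highest library was 10.5 times that in the lowest. This became 7.36 with the total without mitochondrial, hemoglobin and hormone genes, 8.56 with cells of at least 1000 UMIs and 11.9 as a mean of CPM per cell. Without libraries 4 to 6 it was 4.39, and without library 6 alone 5.86, from 937 CPM in library 4 to 5493 in library 7, both choices made after seeing the data. Without those genes Ctsl was highest in library 5 and lowest in library 3. With cells of at least 1000 UMIs Lgmn was lowest in library 5 and Ctsl in library 3, and as a mean per cell Ctsa was highest in library 1 and Ctsz lowest in library 6. The summed CPM in listed microglia, 21809, became 22708.5 with that total and 21335 with the lowest level among types subtracted. In microglia-like cells the highest library stood 1.98 times above the lowest, and 1.76 times with that total. Leaving out clusters 26 and 27, chosen after seeing the data as was leaving out marker-carrying cells, gave 1.92 times. With cells of at least 1000 UMIs only 3 libraries had 50 microglia-like cells, with library 9 the lowest of them. The share of Ctss in microglia stayed at 44.2% to 44.8%. No paired analysis was possible because each group has 1 library, so leaving out a replicate was not possible either. Of the values of single members under the alternatives, 124 stayed within their error or call and 28 moved. Another 1 gained its call and 1 lost it. None of the log2 ratios among them changed sign. The other values are levels or ranges, which have no sign to change. Most of the values that moved were ranges over libraries, and those of Ctss and Ctsd moved under every alternative. The values that stayed include the log2 ratios with genes of at least 50 CPM, which could not move. The order of cell types and of libraries was not counted here, and it changed for some members, as given above. Depth limits the types of few cells: intervals in HbVC, other neurons and oligodendrocytes cover several-fold ranges.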
